A study of Mus musculus with 12 samples.

Results

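Cxcl1, Cxcl2, Cxcl3, Cxcl5 and Cxcl15, which attract neutrophils, and the chemokine receptor Cxcr2 were followed in mouse lung after bleomycin, with and without Fra-1. Fra-1 is a member of the AP-1 family of transcription factors, encoded by Fosl1. The 6 genes were taken as named, each at the transcript cluster to which the probe table gives that gene symbol alone, and each had exactly 1 such cluster. They are 6 of the 23410 clusters with a gene symbol that were tested, out of 35556 clusters on an Affymetrix MoGene 1.0ST array. Left lungs of 12 mice were hybridised, 1 array per mouse, in 4 groups of 3 mice of the C57/129S background. KOT mice were Fra-1-/- and received 0.075 U of bleomycin in 30 µL of PBS through the trachea, and WTT mice were Fra-1+/+ with the same bleomycin. KOC mice were Fra-1-/- and WTC mice Fra-1+/+, both given 30 µL of PBS. All lungs were taken at day 5, and all mice are labelled as female and 2 months old, though the methods give an older range of ages. According to the methods, the knockouts carried floxed Fra-1 alleles deleted by a Meox2-Cre that is active in the embryo but not in extra-embryonic tissue, and day 5 was taken as an early stage of the injury. Each mouse is named by its group and animal number, such as WTT 164. Values are on the log2 scale, so that a difference of 1 is a change of 2-fold.

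CXC chemokines are small secreted proteins named for the spacing of their conserved cysteines. Those with a glutamate-leucine-arginine motif before the cysteines bind Cxcr2, a G protein-coupled receptor carried above all by neutrophils, and draw these cells out of the blood and into tissue. Cxcl1 (KC), Cxcl2 (MIP-2) and Cxcl3 are made by many cells within hours of a signal from interleukin 1, tumour necrosis factor or Toll-like receptors, largely through NF-kB. Cxcl5 (LIX) is made by epithelium and platelets, and Cxcl15 (lungkine), whose receptor is less settled, by lung epithelium.

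The sequences just upstream of the genes are shown because Cxcl1, Cxcl2 and Cxcl3 share an NF-kB match there that was not found for Cxcl15 and Cxcr2, and because the study turns on an AP-1 factor. RefSeq promoters (GRCm38.p6) were held for 5 of the 6 genes, all but Cxcl5. The 120 bases before each start are given 5′ to 3′ on the + strand, at chr5:90891125-90891244 for Cxcl1, chr5:90903779-90903898 for Cxcl2, chr5:90785981-90786100 for Cxcl3, chr5:90794414-90794533 for Cxcl15 and chr1:74153874-74153993 for Cxcr2. Capitals mark matches to the NF-kB motif.
Cxcl1: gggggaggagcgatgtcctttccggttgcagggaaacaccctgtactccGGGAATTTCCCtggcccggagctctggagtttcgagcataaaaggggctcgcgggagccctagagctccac
Cxcl2: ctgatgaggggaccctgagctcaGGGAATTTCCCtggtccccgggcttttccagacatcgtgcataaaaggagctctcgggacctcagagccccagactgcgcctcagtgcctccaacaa
Cxcl3: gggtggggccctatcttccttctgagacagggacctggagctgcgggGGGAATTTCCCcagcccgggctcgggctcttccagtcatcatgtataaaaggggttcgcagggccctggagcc
Cxcl15: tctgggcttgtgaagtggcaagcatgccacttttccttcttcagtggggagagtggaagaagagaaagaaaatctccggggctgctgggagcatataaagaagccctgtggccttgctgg
Cxcr2: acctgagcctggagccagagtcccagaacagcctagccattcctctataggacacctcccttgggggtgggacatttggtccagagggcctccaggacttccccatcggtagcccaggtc

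The same 11 bases, GGGAATTTCCC, lay 71 to 61 bases before the start of Cxcl1, 97 to 87 bases before that of Cxcl2 and 73 to 63 bases before that of Cxcl3. They read as a match on either strand, and the matches on the opposite strands overlap. In the 250 bases before the start, searched on both strands, 7.25% of 32851 promoters held an NF-kB match and 6.75% held the AP-1 motif TGANTCA. None of the 5 promoters held TGANTCA. Matches are descriptions of these letters, and their use in these lungs was not measured. On chromosome 5 the chemokine genes stand in the order Cxcl5, Ppbp, Pf4, Cxcl3, Cxcl15, Cxcl1 and Cxcl2, and Cxcr2 lies next to Cxcr1 on chromosome 1.

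Array medians lay between 7.14 and 7.22, and arrays of 1 group correlated at 0.986 to 0.992. Sftpc and Scgb1a1, which mark alveolar type 2 and club cells, were above 13.6 on every array. Fosl1 was 7.33, 7.32 and 7.28 in KOT 72, 80 and 81, against 7.81, 8.19 and 8.32 in WTT 160, 161 and 164, and 6.68, 6.26 and 6.56 in KOC 53, 55 and 67, against 6.37, 6.76 and 6.86 in WTC 76, 157 and 158. Where its probes lie relative to the deleted part is not given in the sources used here, so Fosl1 cannot serve as a check of the deletion. Xist lay between 4.47 and 4.94 while the Y-linked Eif2s3y lay between 8.52 and 8.93 on all 12 arrays, which goes against the labelled sex of all 12 mice. All Fra-1-/- mice and WTC 76 carry low animal numbers and the other Fra-1+/+ mice high ones, so outside WTC 76 genotype and animal series cannot be told apart. WTT 164 stood apart for the chemokines: it had the highest value of all 12 mice for 5 of the 6 genes, all but Cxcl15.

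Bleomycin was followed by higher Cxcl1, Cxcl2 and Cxcl3 and by lower Cxcl15 when both genotypes were averaged, while Cxcl5 did not pass and Cxcr2, which did not pass either, was high in some mice only. Over the mean of both genotypes, Cxcl2 was higher by 1.82 (SE 0.64, adjusted p = 0.0479), Cxcl1 by 0.75 (SE 0.23, adjusted p = 0.0233) and Cxcl3 by 0.69 (SE 0.22, adjusted p = 0.033), by limma with Benjamini-Hochberg adjustment over all 23410 clusters. So 3 of the 6 genes rose and 1 fell, where 15.7% of all clusters rose and 16.3% fell. Within a single genotype none of Cxcl1, Cxcl2 and Cxcl3 passed an adjusted p of 0.05, and the spread between bleomycin-treated mice was wide.

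The calls of Cxcl1, Cxcl2 and Cxcl3 over both genotypes lay near the threshold. Cxcl2 lost its call without any of 10 mice, all but WTT 160 and KOT 80, and was 1.21 without WTT 164 (limma adjusted p = 0.0595) and 1.43 without KOT 81 (limma adjusted p = 0.112). It also lost it with cyclic loess (adjusted p = 0.0568), with array medians made equal (0.0513), with all clusters of the array tested (0.0774) and with trended, robust moderation (0.0878). Cxcl3 lost its call without any of 8 mice, all but the 3 WTT mice and WTC 158, with differences of 0.65 to 0.72 then, and with cyclic loess or all clusters (adjusted p = 0.0519 and 0.0555). Without WTT 164 it was 0.44 and kept its call. Cxcl1 lost it without KOC 67 (0.71, limma adjusted p = 0.0507) or KOT 81 (0.65, limma adjusted p = 0.0591). Cxcr2, at 0.80 (SE 0.42, limma adjusted p = 0.179), passed without WTT 160 (1.17, limma adjusted p = 0.0169) and with array weights (0.98, limma adjusted p = 0.0329), and was 0.47 without WTT 164.

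Cxcl2, a chemokine of activated macrophages and neutrophils, was 6.08, 5.20 and 7.98 in KOT 72, 80 and 81, and 5.47, 7.02 and 9.89 in WTT 160, 161 and 164. It was 5.25, 5.19 and 5.10 in the KOC mice 53, 55 and 67, and 5.14, 4.94 and 5.10 in WTC 76, 157 and 158. The PBS mice were thus all but level, while the bleomycin mice ran from PBS level in KOT 80 to the far higher WTT 164. No detection call was used, so whether Cxcl2 was above background with PBS is not known, and the log2 differences hold for the values as deposited. Every WTT mouse lay above every WTC mouse, but KOT 80 fell among the KOC mice. The group means were 6.42 ± 1.42 in KOT, 7.46 ± 2.24 in WTT, 5.18 ± 0.07 in KOC and 5.06 ± 0.10 in WTC (SD, n = 3 each). Cxcl2 was higher by 2.40 (SE 0.90, limma adjusted p = 0.0829) in WTT against WTC and by 1.24 (SE 0.90, limma adjusted p = 0.411) in KOT against KOC. A local-pooled-error test (LPE), taken from the study's methods, compares medians and borrows its error from genes of like intensity. It takes no account of how far the gene itself varies between mice. The SD of Cxcl2 around its group means was 1.33, against 0.127 for the median cluster. LPE called Cxcl2 in both comparisons, at LPE adjusted p = 8.79e-19 and 2.2e-05. It called 7.93% of clusters for WTT against WTC and 8.07% for KOT against KOC. Without WTT 164 the difference in WTT was 1.18, and without WTT 160 it was 3.39 and passed (limma adjusted p = 0.0129). The difference in KOT was 0.46 without KOT 81 and 1.85 without KOT 80.

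Cxcl1, which many stromal and epithelial cells make, was 7.53, 7.25 and 8.04 in KOT, 7.26, 7.24 and 8.66 in WTT, 6.95, 6.95 and 6.71 in KOC and 7.09, 6.87 and 6.88 in WTC, with the mice in the same order as above. All 6 bleomycin mice lay above all 6 PBS mice, and KOT 81 and WTT 164 stood above the other 4. The difference was 0.77 (SE 0.32, limma adjusted p = 0.11) for WTT against WTC and 0.74 (SE 0.32, limma adjusted p = 0.151) for KOT against KOC. Without WTT 164 the difference in WTT was 0.30, and the one in KOT, still 0.74, then passed at a limma adjusted p of 0.0146.

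Cxcl3, a close relative of Cxcl2, was 5.86, 5.96 and 6.13 in KOT, 5.997, 6.07 and 7.56 in WTT, 5.59, 5.46 and 5.36 in KOC and 5.68, 5.52 and 5.81 in WTC. Again all bleomycin mice lay above all PBS mice, narrowly between KOT 72 and WTC 158, and only WTT 164 stood far above. As for Cxcl2, no detection call was used, so whether these low Cxcl3 values were above background is not known. The difference was 0.87 (SE 0.31, limma adjusted p = 0.0717) for WTT against WTC and 0.51 (SE 0.31, limma adjusted p = 0.318) for KOT against KOC. Without WTT 164 the difference in WTT was 0.36, and that in KOT, still 0.51, then passed at a limma adjusted p of 0.00754. The difference in WTT passed without WTT 160 (1.14, limma adjusted p = 0.0262) or WTT 161 (1.11, limma adjusted p = 0.0488). How far the probes of these related genes bind each other's RNA is not given in the sources used here.

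Counted by overlap, 3 of the 6 genes in WTT lay wholly above WTC (Cxcl1, Cxcl2 and Cxcl3), against 18.3% of all clusters, and 2 of 6 in KOT lay wholly above KOC (Cxcl1 and Cxcl3), against 18.8%. At an unadjusted p under 0.05, 5 of the 6 genes differed for WTT against WTC, all but Cxcl5, against 33.6% of clusters, and 2 of 6 for KOT against KOC, Cxcl1 and Cxcl15, against 28.8%.

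**Figure D1:**
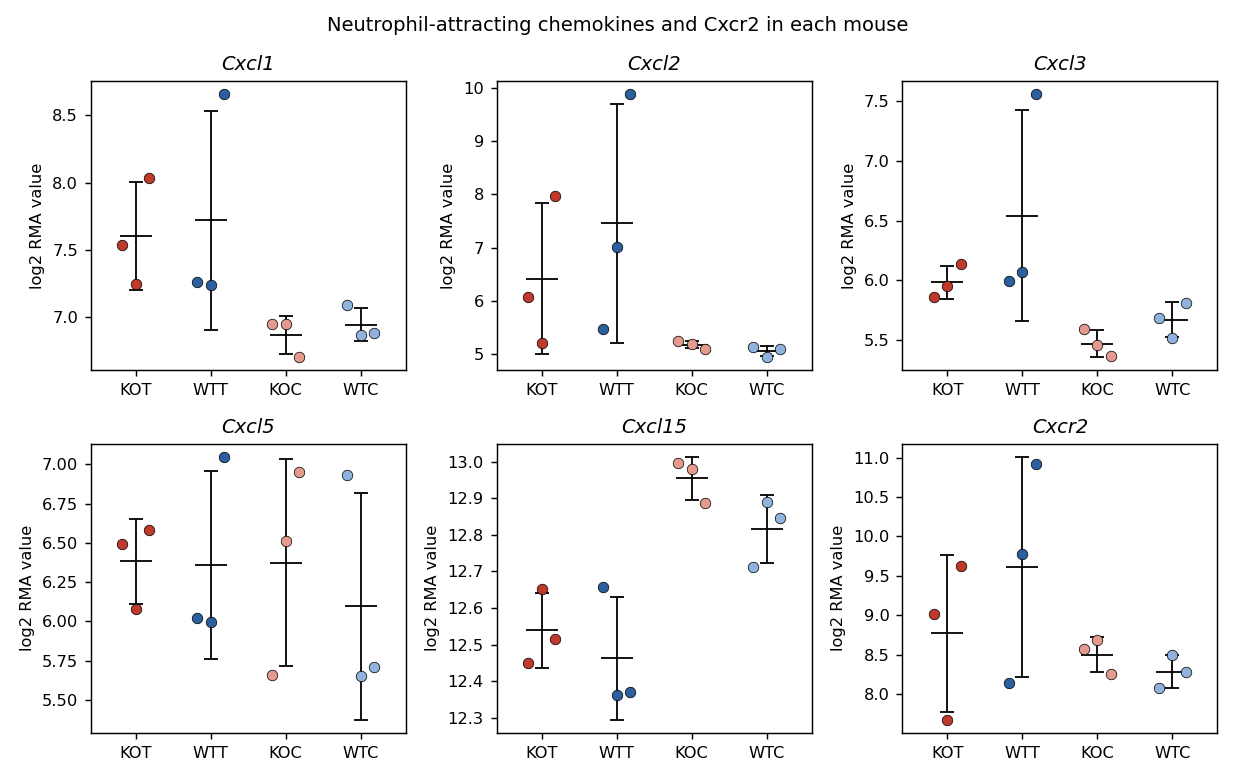
Log2 RMA values of the 6 genes in each mouse (points) with the group mean and SD (bars), for KOT, WTT, KOC and WTC, 3 mice each. Each panel has its own range. For Cxcl2 the bleomycin mice spread from 5.20 to 9.89 while the PBS mice lie between 4.94 and 5.25, and for Cxcl15 all bleomycin mice lie below all PBS mice.

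Cxcl5, the epithelial and platelet chemokine, did not follow the treatment. It was 6.49, 6.08 and 6.58 in KOT, 6.02, 5.998 and 7.05 in WTT, 5.66, 6.51 and 6.95 in KOC and 6.93, 5.65 and 5.71 in WTC. All groups overlapped, and KOC 67 and WTC 76, given only PBS, were nearly as high as WTT 164. The difference was 0.26 (SE 0.40, limma adjusted p = 0.708) for WTT against WTC, with a 95% confidence interval of -0.62 to 1.14, and 0.01 (SE 0.40, limma adjusted p = 0.994) for KOT against KOC, with an interval of -0.87 to 0.89. These intervals leave room for changes as large as those of Cxcl1.

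Cxcl15, the chemokine of lung epithelium, fell in both genotypes. It was 12.45, 12.65 and 12.52 in KOT, 12.66, 12.36 and 12.37 in WTT, 13.00, 12.98 and 12.89 in KOC and 12.71, 12.89 and 12.85 in WTC. Every bleomycin mouse lay below every PBS mouse. The change was -0.42 (SE 0.09, limma adjusted p = 0.0122) for KOT against KOC, a fold of 0.749, and -0.35 (SE 0.09, limma adjusted p = 0.0205) for WTT against WTC, a fold of 0.783. It was the 1 gene of 6 called by limma in each of these comparisons, where 7.98% of clusters were called lower for KOT against KOC and 11.3% for WTT against WTC, and where 16.6% and 17.4% of clusters lay without overlap below the PBS mice. Over the mean of both genotypes the change was -0.38 (SE 0.07, adjusted p = 0.00108), the smallest p of the 6 genes, and it passed whichever mouse was left out.

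Single mice and the threshold decided the Cxcl15 calls within a genotype. At a threshold of 0.01 neither comparison passed, by limma or by LPE (LPE adjusted p = 0.0111 for KOT against KOC and 0.0176 for WTT against WTC), and with only the WTT and WTC arrays fitted the limma adjusted p was 0.0662. The call for KOT against KOC was lost without KOC 53 (-0.40, limma adjusted p = 0.0504) or KOT 72 (-0.37, limma adjusted p = 0.0598). The call for WTT against WTC was lost without WTC 157 (-0.32, limma adjusted p = 0.0767), WTC 158 (-0.34, limma adjusted p = 0.0642), WTT 161 (-0.30, limma adjusted p = 0.0779) or WTT 164 (-0.31, limma adjusted p = 0.0766).

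Markers of the alveolar type 2 cell, which secretes surfactant, moved the same way as Cxcl15. Of 10 markers, 6 fell and 0 rose for KOT against KOC (median -0.63), and 7 fell and 0 rose for WTT against WTC (median -0.59), while the median of all clusters was 0.02 in both and 7.98% of clusters fell for KOT against KOC and 11.3% for WTT against WTC. Their mean level ran from 11.56 to 12.06 in KOT, 11.42 to 11.86 in WTT, 12.29 to 12.37 in KOC and 12.18 to 12.20 in WTC. Of 8 airway secretory markers, 1 fell for KOT against KOC and 5 for WTT against WTC, beside the same shares of clusters. Beside these shares too, 5 of 6 endothelial markers fell and 0 rose in each comparison. Their medians were -0.58 for KOT against KOC and -0.47 for WTT against WTC. In whole lung, fewer cells of a type and less RNA per cell cannot be told apart. The part of any of these cell types in the fall of Cxcl15 was not tested.

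Cxcr2 was high in some bleomycin mice and not in others. It was 9.02, 7.67 and 9.62 in KOT 72, 80 and 81, 8.14, 9.78 and 10.92 in WTT 160, 161 and 164, 8.57, 8.68 and 8.26 in KOC and 8.08, 8.50 and 8.28 in WTC. KOT 72 and 81 and WTT 161 and 164 lay above all PBS mice, WTT 160 lay among them, and KOT 80 lay below them all. The difference was 1.33 (SE 0.59, limma adjusted p = 0.14) for WTT against WTC and 0.27 (SE 0.59, limma adjusted p = 0.821) for KOT against KOC, with the groups overlapping in both. LPE called the WTT difference (adjusted p = 1.28e-11). Without WTT 160 it also passed in limma, at 2.07 (adjusted p = 0.0112), and without WTT 164 it was 0.68. For KOT against KOC it was 0.82 without KOT 80 and -0.16 without KOT 81.

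Neutrophil markers were spread over the same mice. Their mean level over 18 genes was 7.85, 7.32 and 8.08 in KOT 72, 80 and 81 and 7.70, 8.33 and 8.90 in WTT 160, 161 and 164, and ran from 7.34 to 7.47 in KOC and from 7.30 to 7.49 in WTC. Among the 6 bleomycin mice these means stood in the same order as Cxcr2, with WTT 164 highest and KOT 80 lowest. Of the 18 markers, 4 rose and 0 fell for WTT against WTC (Mmp8, a granule collagenase, by 2.86; Clec4d by 1.77; Trem1 by 1.68; Ngp, a granule protein of immature cells, by 1.49), with a median of 0.99, where 10.2% of all clusters rose. For KOT against KOC limma called Mmp8 alone, higher by 1.93 (adjusted p = 0.0154), with a median of 0.12, where 7.42% of all clusters rose. LPE called 5 markers there, Mmp8, Clec4d, Cd177, Trem1 and Mmp9, where it called 8.07% of all clusters. Ly6g (0.003), S100a8 (0.09), S100a9 (0.02), Retnlg (0.13) and Ngp (-0.38) were called by neither test there. In means, 16 of the 18 were higher and 2 lower. Of 9 macrophage and monocyte markers, limma called 7 higher for KOT against KOC and 6 for WTT against WTC, beside the same shares of risen clusters. By overlap 3 of the 18 markers lay wholly above KOC, Mmp8, Clec4d (1.28) and Trem1 (1.14), where 18.8% of all clusters did. By LPE 11 of the 18 were called for WTT against WTC, where 7.93% of all clusters were. The defining marker Ly6g lay between 5.73 and 8.57, highest in WTT 164, and Mpo and Elane, made early in neutrophil development, stayed between 6.07 and 6.74 on all arrays. The part of neutrophil number in the values of Cxcr2 and Cxcl2 was not tested.

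**Figure D2:**
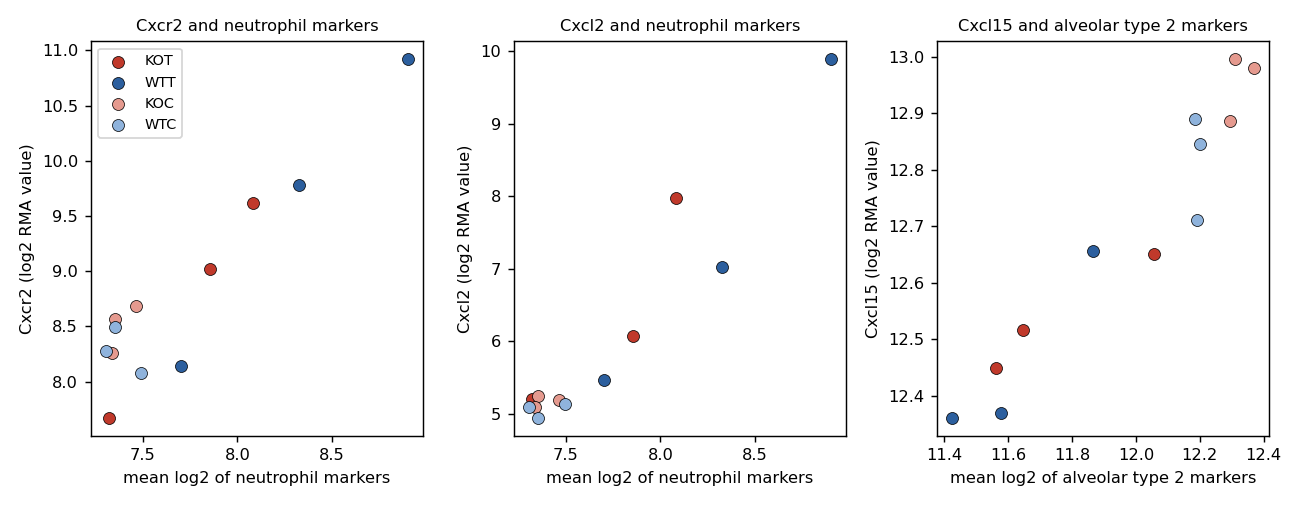
Cxcr2 and Cxcl2 against the mean log2 level of 18 neutrophil markers, and Cxcl15 against the mean of 10 alveolar type 2 markers, with 1 point per mouse, coloured by group (KOT, WTT, KOC, WTC). WTT 164 is at the top right of the Cxcr2 and Cxcl2 plots (10.92 and 9.89 at a marker mean of 8.90), KOT 80 has the marker level of the PBS mice in both, and in the Cxcl15 plot the PBS mice are at the top right.

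Loss of Fra-1 was compared next, at each treatment. With PBS none of the 6 genes passed in limma. The limma SE pools the spread of all groups, bleomycin groups included. For Cxcl2 it was 0.90, though the SD was 0.07 in KOC and 0.10 in WTC, against 2.24 in WTT. The confidence interval of Cxcl2 for KOC against WTC ran from -1.86 to 2.10. A missing call therefore does not show that the genotypes were alike with PBS. The differences for KOC against WTC were -0.08 for Cxcl1, 0.12 for Cxcl2, -0.20 for Cxcl3, 0.28 for Cxcl5, 0.14 for Cxcl15 and 0.22 for Cxcr2, with limma adjusted p between 0.687 and 0.986 and all groups overlapping. Groups without overlap made up 16.3% of all clusters. By limma 0 of the 6 genes were called, where 0.0128% of clusters were, and 0 had an unadjusted p under 0.05, where 9.82% did. By LPE 1 of the 6 was called, where 1.78% of clusters were. That gene was Cxcl5, by the difference in medians (0.80, LPE adjusted p = 0.00316), though its mice ran from 5.66 to 6.95 in KOC and from 5.65 to 6.93 in WTC.

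With bleomycin Cxcl2, Cxcl3 and Cxcr2 had lower means in KOT than in WTT, but none passed the test. The difference was -1.04 (SE 0.90, limma adjusted p = 0.722) for Cxcl2, with a 95% confidence interval of -3.01 to 0.94, -0.84 (SE 0.59, limma adjusted p = 0.644) for Cxcr2, with an interval of -2.14 to 0.46, and -0.56 (SE 0.31, limma adjusted p = 0.563) for Cxcl3, with an interval of -1.25 to 0.13. Cxcl1 (-0.11), Cxcl5 (0.03) and Cxcl15 (0.08) differed less. All groups overlapped, where 15.7% of all clusters did not. By limma 0 of the 6 genes were called, where 0.0427% of clusters were, and 0 had an unadjusted p under 0.05, where 10.6% did. By LPE 1 of the 6 was called, where 0.705% of clusters were. That gene was Cxcl2, at adjusted p = 5.21e-04. Without WTT 164 the difference was 0.18 for Cxcl2, -0.19 for Cxcr2 and -0.048 for Cxcl3, so most of these 3 differences came with that mouse. Without WTT 160 it was -2.03 for Cxcl2 and -1.58 for Cxcr2, and neither passed. Of the 18 neutrophil markers 16 had lower means in KOT, with a median of -0.54. By limma 0 of them passed, and by LPE 5 did, Ngp, S100a8, Ly6g, Trem1 and Clec4d, of which Ngp (-1.48) lay wholly below WTT.

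The responses themselves were set against each other, KOT minus KOC against WTT minus WTC. The response of KOT was smaller by 1.16 on the log2 scale for Cxcl2 (-1.16, SE 1.28, limma adjusted p = 0.992) and by 1.06 for Cxcr2 (-1.06, SE 0.84, limma adjusted p = 0.984), and neither passed. Without WTT 164 the values were 0.056 for Cxcl2 and -0.41 for Cxcr2, and without WTT 160 they were -2.15 and -1.80. The other 4 genes lay between -0.36 and -0.04. None of the 6 genes had an unadjusted p under 0.05, where 5.1% of all clusters did, and 0 of 23410 clusters passed after adjustment. LPE does not apply to this comparison. With standard errors this wide, a missing call does not show that the genotypes responded alike.

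**Figure D3:**
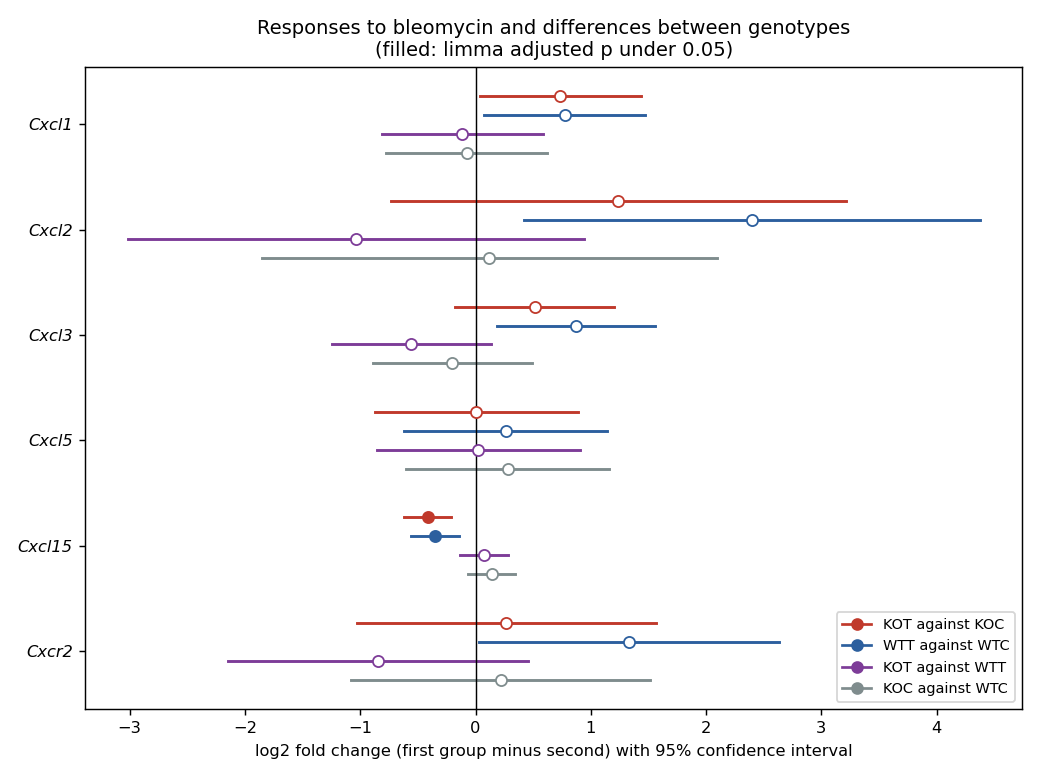
Log2 fold changes of the 6 genes with 95% confidence intervals from limma, for KOT against KOC, WTT against WTC, KOT against WTT and KOC against WTC. Filled points passed a Benjamini-Hochberg adjusted p of 0.05. These are Cxcl15 in both bleomycin comparisons (-0.42 and -0.35), and the intervals of Cxcl2 are the widest, such as 0.42 to 4.37 for WTT against WTC.

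Ordered by group mean, Cxcl1 and Cxcl3 ran WTT, KOT, WTC, KOC, and only KOT and WTC did not overlap between neighbours. Cxcl2 and Cxcr2 ran WTT, KOT, KOC, WTC, with every pair of neighbours overlapping. Cxcl15 ran KOC, WTC, KOT, WTT, and WTC and KOT did not overlap. Cxcl5 ran KOT, KOC, WTT, WTC, with all neighbours overlapping.

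The genes differed strongly in how far mice of 1 group stood apart. The residual SD around the group means was 1.33 for Cxcl2, 0.871 for Cxcr2, 0.589 for Cxcl5, 0.462 for Cxcl1 and 0.457 for Cxcl3, where the median cluster had 0.127. These 5 genes were above the 97th percentile of all clusters, with Cxcl2 at 99.95 and Cxcr2 at 99.74. Cxcl15, at 0.113, was at the 39.4th percentile. For Cxcl5 the spread was as wide with PBS (SD 0.66 in KOC and 0.72 in WTC) as with bleomycin (0.27 in KOT and 0.60 in WTT), while for Cxcl2 and Cxcr2 it lay in the bleomycin mice.

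Deviations from the group means were set against each other over the 12 mice, for 27 relations between the 6 genes and with the means of the neutrophil and alveolar type 2 markers. Cxcl1 and Cxcl2 deviated together (Pearson r = 0.93, exact permutation p = 0.01, adjusted 0.12). Their Spearman rho was 0.94 (exact permutation p = 0.00231, adjusted 0.0625). With 1 mouse left out and group means taken again, r ran from 0.81 to 0.98. Cxcr2 deviated with the neutrophil markers (r = 0.97, exact permutation p = 0.0154, adjusted 0.12). Their rho was 0.82 (exact permutation p = 0.0231, adjusted 0.156), and r ran from 0.93 to 0.99 with 1 mouse left out. Cxcl15 deviated with the alveolar type 2 markers (r = 0.81, exact permutation p = 0.0139, adjusted 0.12). That rho was 0.67 (exact permutation p = 0.0455, adjusted 0.198), and r ran from 0.67 to 0.88 with 1 mouse left out. Cxcl15 also deviated opposite to the neutrophil markers (r = -0.77, exact permutation p = 0.0733, adjusted 0.152). There rho was -0.74 (exact permutation p = 0.0455, adjusted 0.198), and r ran from -0.82 to -0.49 with 1 mouse left out. Without the mice farthest from the median of 1 measure, with group means not taken again, r was nearer to 0 in each case. It was 0.78 for Cxcl1 and Cxcl2 without WTT 164 and KOT 81. For Cxcl15 and the alveolar type 2 markers r was 0.57 without KOT 80 and WTT 160. Without WTT 160 and WTT 164 the neutrophil markers gave 0.91 with Cxcr2 and -0.58 with Cxcl15. Permutations were two-sided and within groups, and 0 of the 27 relations passed an adjusted p of 0.05 by either measure.

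Other attractants of neutrophils and their receptors were measured for 13 of 15 genes listed. Ackr1, an endothelial and erythroid receptor that binds chemokines without signalling, rose by 1.19 (limma adjusted p = 0.00337) in KOT against KOC and by 1.03 (limma adjusted p = 0.00522) in WTT against WTC. Alox5ap, needed for leukotriene synthesis, and Cxcl12, the ligand of Cxcr4, also rose in both. C5ar1, the receptor for complement C5a, rose by 1.42 (limma adjusted p = 0.0102) in WTT against WTC and was higher by 0.94 (limma adjusted p = 0.0758) in KOT against KOC. LPE called it in both, the groups did not overlap in either, and the difference between its responses did not pass. In all, by limma, 3 rose and 2 fell for KOT against KOC, where 7.42% of clusters rose and 7.98% fell, and 4 rose and 2 fell for WTT against WTC, where 10.2% rose and 11.3% fell, with medians of 0.12 for KOT against KOC and 0.43 for WTT against WTC.

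The 2 that fell were Cxcr4 and Ppbp. Ppbp, a platelet chemokine whose product also binds Cxcr2 and whose gene stands between Cxcl5 and Pf4, was 8.72, 9.22 and 8.54 in KOT, 9.83, 10.18 and 9.28 in WTT, 11.77, 10.91 and 10.25 in KOC and 10.83, 11.45 and 11.60 in WTC. Every bleomycin mouse lay below every PBS mouse of its genotype. It fell by 2.15 (limma adjusted p = 0.00271) in KOT against KOC and by 1.53 (limma adjusted p = 0.0108) in WTT against WTC. Of 8 platelet markers measured, Ppbp included, 2 fell in each of these comparisons, where 7.98% and 11.3% of clusters fell. Ppbp and Cxcl15 thus fell while Cxcl1, Cxcl2 and Cxcl3, of the same stretch of chromosome 5, had higher means. Pf4, a platelet marker of that stretch, was higher by 0.56 (limma adjusted p = 0.208) in WTT against WTC. Every WTT mouse lay above every WTC mouse for Pf4, as for 18.3% of all clusters. In KOT against KOC the Pf4 difference was 0.03 (limma adjusted p = 0.962), with overlap. Cxcr1, beside Cxcr2 on chromosome 1, changed by 0.07 (limma adjusted p = 0.796) in KOT against KOC and by -0.19 (limma adjusted p = 0.381) in WTT against WTC.

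Genes that induce these chemokines were measured for 15 of 17 listed. By limma 5 rose and 0 fell for KOT against KOC, and the same 5 rose and 1, Traf3ip2, fell for WTT against WTC, where 7.42% and 10.2% of clusters rose, with medians of 0.23 in KOT and 0.41 in WTT. Tnf, the cytokine itself, rose by 1.34 (limma adjusted p = 0.0409) in KOT and by 1.35 (limma adjusted p = 0.0314) in WTT. The others were Tnfrsf1a, its receptor, Myd88, the adaptor of Toll-like and interleukin 1 receptors, Tlr2 and Il17ra. Il1b, an inducer that varied as Cxcl2 did, was 9.81, 8.47 and 10.50 in KOT and 8.81, 9.61 and 11.70 in WTT, against 8.49 to 8.78 in KOC and 8.40 to 9.01 in WTC. Its groups overlapped and limma did not call it, while LPE did in KOT against KOC (adjusted p = 7.35e-09) and in WTT against WTC (adjusted p = 1.38e-05). Of 10 measured genes of Cxcr2 signalling, 3 rose and 0 fell by limma in each genotype, beside the same shares of clusters, with medians of 0.35 in KOT and 0.33 in WTT: Arrb2, which desensitises the receptor, Vasp, which acts on actin, and the kinase Fgr. Between genotypes 0 genes of these 3 lists passed in limma at either treatment, where 0.0128% of clusters did with PBS and 0.0427% with bleomycin. LPE called Ppbp, lower by 0.94 in KOT than in WTT without overlap (LPE adjusted p = 5.29e-06). All 8 platelet markers had lower means in KOT than in WTT, and 5 did not overlap, where 15.7% of all clusters did not. Limma called 0 of the 8. LPE also called Il1a, with higher means in KOT than in WTT (0.60, LPE adjusted p = 8.47e-04) and in KOC than in WTC (0.69, LPE adjusted p = 0.0093). Its groups overlapped in both. LPE called 0.705% of all clusters for KOT against WTT and 1.78% for KOC against WTC.

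**Figure D4:**
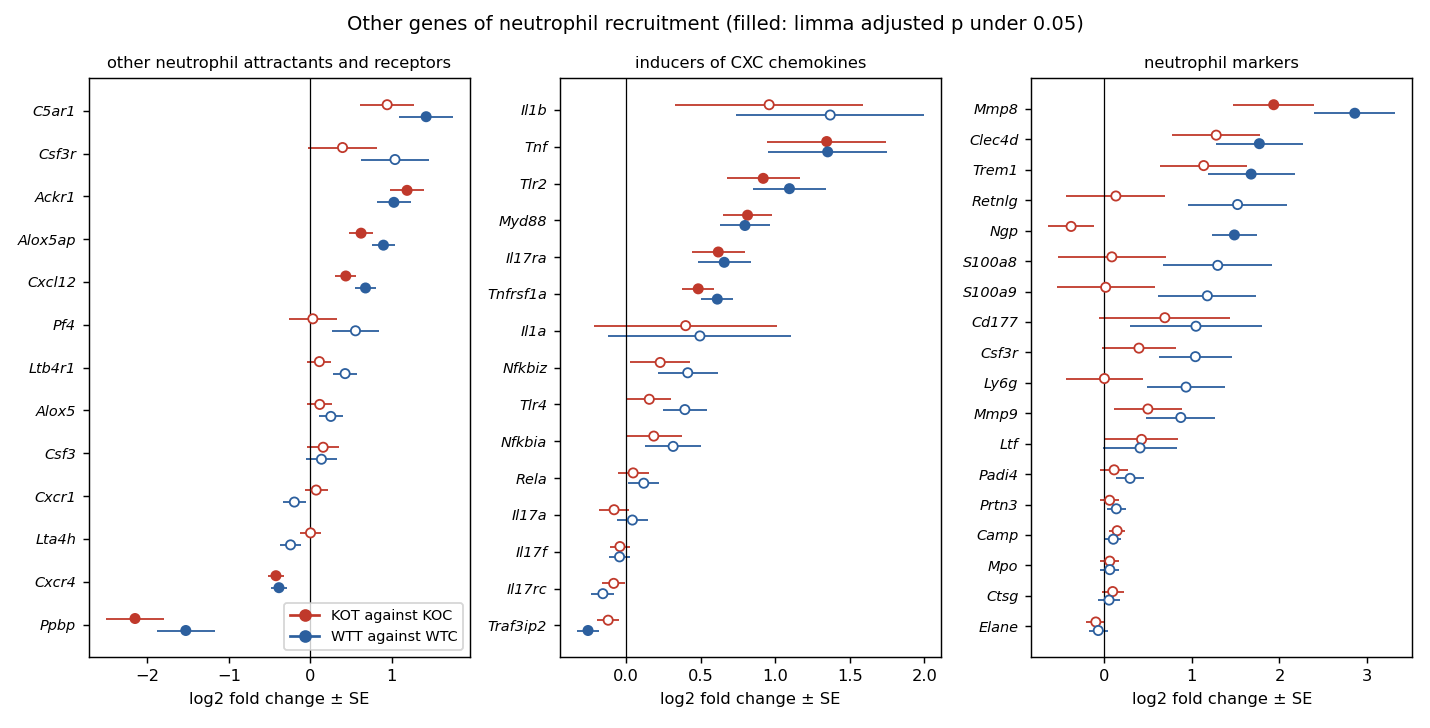
Log2 fold changes with SE for other neutrophil attractants and receptors (13 genes), inducers of CXC chemokines (15 genes) and neutrophil markers (18 genes), for KOT against KOC and WTT against WTC. Filled points passed a limma adjusted p of 0.05. Ppbp falls most (-2.15 and -1.53) and Mmp8 rises most (1.93 and 2.86).

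The genes most like each member over the 12 arrays were sought among 930 clusters with 1 symbol and an SD of at least 0.5, by Pearson's r, as a description. Cxcl1 was most like Il6 (r = 0.97), Nlrp3 (0.95) and Ptx3 (0.95). Cxcl2 was most like Ptx3 (0.98), Acod1 (0.98), which makes itaconate in activated macrophages, and Il1b (0.97). Cxcl3 was most like Mefv, Serpinb2 and Ptx3 (0.94 each). Cxcr2 was most like Csf3r (0.99), the G-CSF receptor of neutrophils, Il1f9 (0.97) and S100a8 (0.96). Cxcl15 was most like Sema6a, Dpp4 and Ociad2 (0.98 each), and Cxcl5 like Ifitm1 (0.95), Cd177 (0.82) and Pglyrp1 (0.74).

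After the group means were removed, so that only differences between mice of 1 group counted, the leaders were Ptx3 (0.96), Il6 (0.95) and Adamts4 (0.93) for Cxcl1, Asprv1, Il1f9 (0.98 each) and Acod1 (0.97) for Cxcl2, and Serpinb2 (0.94), P2ry2 (0.94) and Ptx3 (0.91) for Cxcl3. They were S100a8 (0.99), Csf3r (0.99) and B430306N03Rik (0.98) for Cxcr2, Plce1 (0.99), Cpm (0.96) and Fmo1 (0.95) for Cxcl15, and Ifitm1 (0.95), Mthfd2 (0.91) and Pglyrp1 (0.90) for Cxcl5. The arrays share treatment groups, and WTT 164 is the top array of 5 members, so these values rest in part on a few mice.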

How the data were processed

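Lung RNA of 12 mice was measured, 3 per group, 1 array each. The authors normalised probe signals by quantiles, summarised them with Affymetrix Power Tools (RMA, median polish; version not given in the sources used here) and deposited log2 values. Quantile normalisation forces the arrays to 1 distribution, so an overall shift cannot be seen. No further normalisation was applied, and the detection filter of the authors was not used.

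Groups came from the labels. A model with a mean per group, with 8 residual degrees of freedom, was fitted to 23410 clusters with limma 3.58.1 in R 4.3.3, with Benjamini-Hochberg adjustment over all of them and a threshold of 0.05, two-sided. Of these clusters 21789 carry 1 symbol, and genes are named only from them. All 6 members are always named, with up to 4 genes of each list with the smallest p and the 3 genes most like each member. LPE was written anew with 100 bins, a spline (10 degrees of freedom) and a threshold of 0.01. An exact test of 3 mice against 3 cannot go below a p of 0.1. The scripts were tested on simulated data. The members and lists were chosen with earlier results of these data known. The alternatives were LPE, a threshold of 0.01, only the arrays compared, array weights (statmod 1.5.0), moderation with trend and robust, arrays set to equal medians, cyclic loess, a filter at a group mean of 6, all clusters of the array, and each mouse left out.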

Additional observations from a re-analysis of the deposited data

How the results depend on the processing

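The number of arrays limits the precision. Of the 6 genes, 1 passed for WTT against WTC, and 2 did by LPE (Cxcl2 and Cxcr2), 3 with array weights, 0 at an adjusted p under 0.01 and 0 with only the arrays compared. Leaving out 1 mouse gave 0 to 4. For KOT against KOC 1 passed, against 3 with only the arrays compared (Cxcl1, Cxcl3 and Cxcl15), 2 with array weights and 0 under 0.01, and leaving out 1 mouse gave 0 to 3. Over the mean of both genotypes 4 passed, against 1 under 0.01, 2 with cyclic loess and 2 with all clusters of the array, and leaving out 1 mouse gave 1 to 5. LPE gave 1 where limma gave 0 for KOC against WTC (Cxcl5) and for KOT against WTT (Cxcl2). Leaving out any 1 mouse gave 0 for both of these and for the difference between responses. By LPE 7.93% of all clusters were called for WTT against WTC, 1.78% for KOC against WTC and 0.705% for KOT against WTT. Shares of all clusters were not counted for the other alternatives. These counts therefore do not show whether the 6 genes or the whole array gained or lost calls. The cause of these changes was not tested.

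Directions turned for few values. Cxcl5 in KOT against KOC was 0.01, and -0.020 by LPE, -0.023 with cyclic loess and -0.036 with equal array medians. By LPE's medians Cxcl1 was 0.068 for KOC against WTC and 0.27 for KOT against WTT. With 1 mouse left out, Cxcl5 ran from -0.085 to 0.68 for WTT against WTC, from -0.35 to 0.30 for KOT against KOC, from -0.045 to 0.34 over both genotypes, from -0.012 to 0.69 for KOC against WTC and from -0.15 to 0.37 for KOT against WTT. Cxcl1 ran from -0.12 to 0.0053 for KOC against WTC and from -0.35 to 0.35 for KOT against WTT, Cxcr2 from -0.16 to 0.82 for KOT against KOC, and Cxcl2 from -2.03 to 0.18 for KOT against WTT. For the difference between responses the ranges were -0.28 to 0.43 for Cxcl1, -2.15 to 0.056 for Cxcl2, -0.63 to 0.15 for Cxcl3, -0.67 to 0.093 for Cxcl5 and -0.12 to 0.034 for Cxcl15. Of 732 values under alternatives, 643 kept their direction and side of the threshold. No paired analysis was possible because the groups share no animal numbers. All 6 genes passed the filter on low values, Cxcl2 only through the bleomycin groups and Cxcl3 only through WTT (mean 6.54, against 5.98 in KOT). The choice between several clusters of a gene gave no value, since each of the 6 genes has 1.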
